A study of Mus musculus with 7 samples.

Results

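The histone genes of hematopoietic stem and progenitor cells were taken from the deposited table of normalised counts by their symbols: rows whose symbol follows the older form (Hist1h2ao and the like) or the current form for linker histone H1 and for core histones H2A, H2B, H3 and H4 (H1f0, H2ac6, H2bc4, H3c4, H4c9). Of 48440 genes in the table, 70 had such a symbol and 67 of these had a count above 0 in at least 1 library. The remaining 3 (H1f7, H2ac1 and H3c14) were at 0 in all 7 libraries. The 67 genes comprised 10 H1, 19 H2A, 15 H2B, 11 H3 and 12 H4 genes.

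The RNA came from LSK cells (lineage marker negative, Sca1 positive, cKit positive), a bone marrow (BM) population that holds the hematopoietic stem cells. BM from wild-type donors (n = 4 libraries) or from donors with a constitutive, endonuclease-mediated PROSER1 KO (n = 3) was transplanted into C57BL/6 mice irradiated with 9.5 Gy, and LSK cells were sorted at day 77 in both groups, with no further treatment. PROSER1 is a partner of the TET proteins, which oxidise methylated DNA, and the comparison asks how gene expression differs in LSK cells that lack it. The age, sex and strain of the donors and the number of recipients behind each library were not given in the sources used here, and host LSK cells that survived irradiation cannot be told apart from donor cells.

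Core histones form the nucleosome, around which DNA is wrapped, and linker histone H1 binds the DNA where it enters and leaves the nucleosome. Most of these genes are replication-dependent: they lie in clusters, have no introns and are transcribed in S phase, and their mRNA ends in a conserved stem-loop bound by SLBP in place of a poly(A) tail. A few members, among them H1f0 and H1f10, are instead expressed outside S phase from polyadenylated mRNA. The labels name poly(A) RNA as the molecule, and libraries of poly(A) RNA hold stem-loop histone mRNA only in part, so low values here are not the abundance of these mRNAs in the cell.

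The libraries held 33143619 to 45140743 read pairs on genes, and 3 read pairs, the limit that a count of 0 allows, corresponded to normalised counts of 2.54 to 3.48, which covers counting error only. The targeted gene, Proser1, had a mean normalised count of 2088 in the wild-type libraries, the highest of which was at 2153, and stood at 2464, 2359 and 2338 in the libraries labelled PROSER1 KO. It was thus not lower in the latter (1.14-fold higher, adjusted p = 0.204, limma), which does not check the labels without knowing the deleted part, so that every direction below rests on the labels. Kit and Ly6a, which encode the sorted surface proteins, were present in all libraries (summed normalised counts of 30232 to 36363), and 8 lineage genes that the sort should remove summed to between 960 and 1920, with overlap between groups. Other lists were higher: 4 granulocyte genes summed to between 15818 and 20278. A list of 8 B and plasma cell genes, immunoglobulin genes among them, held 3.37% to 7.85% of normalised counts. Groups overlapped in both, and which cells this RNA came from was not tested. Immunoglobulin genes held between 5.55% and 13% of normalised counts, the most in wild-type replicate 4, and Cd3e, a T cell gene, was at 197 in PROSER1 KO replicate 1 and at most 24.0 elsewhere.

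The annotated transcripts were searched for the elements of stem-loop and of polyadenylated mRNAs. In GENCODE M21 transcripts (GRCm38), all 67 genes were matched by identifier. The 14-base stem-loop pattern (GNNC, then TTTT, then NAGNNC, with N for any base), read on the transcript strand, was found in 39 of the 67 genes, against 1.04% of all protein-coding transcripts. A poly(A) signal, AATAAA or ATTAAA, stood in the last 40 bases of an annotated transcript of 16 of the 67, against 48.7% of all protein-coding transcripts. Both elements were found in 9 genes, and neither in 21. An element beyond the annotated transcript end could not be found. Some of the 21 have short annotated transcripts, such as H4c12 with 312 bases and H2bc13 with 381. The sequences below show the element in the members with the highest levels and in members described later, with the pattern in capitals.

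H1f0, poly(A) signal, chr15:79030478-79030493, plus strand: tttaaAATAAAactgg
H1f10, poly(A) signal, chr6:87980431-87980446, minus strand: ggcgcAATAAAcggtt
H2bc21, poly(A) signal, chr3:96223712-96223727, plus strand: ttattAATAAAgttac
H1f2, stem-loop, chr13:23739508-23739531, plus strand: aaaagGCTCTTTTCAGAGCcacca
H1f2, poly(A) signal, chr13:23740337-23740352, plus strand: cttctAATAAAaagcg
H4c9, stem-loop, chr13:22040962-22040985, minus strand: taaagGCCCTTTTTAGGGCcacca
H4c9, poly(A) signal, chr13:22040646-22040661, minus strand: tttacATTAAAagtat
Hist1h2ao, stem-loop, chr13:21810894-21810917, plus strand: aaaagGCTCTTTTCAGAGCcatcc
Hist1h2ap, stem-loop, chr13:21833026-21833048, minus strand: aaaagGCTCTTTTCAGAGCcatc
H3c4, stem-loop, chr13:23576240-23576263, plus strand: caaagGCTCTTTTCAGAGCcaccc

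The stem-loop of H1f2, Hist1h2ao, Hist1h2ap and H3c4 was the same 14 bases, and 22 of the 39 genes carried them. The H4 genes had forms of their own, of which the one in H4c9 was shared with H4c14 only. H1f2 and H4c9 held both elements: in H1f2 the annotated transcript went on for 841 bases after the stem-loop and in H4c9 for 331, ending shortly after the poly(A) signal. H1f0, H1f10 and H2bc21 had a poly(A) signal, and no match to the stem-loop pattern was found in their annotated transcripts.

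A few genes supplied most histone reads. H1f0, H1f10, H1f2, H2bc21, H2bc4 and H4c9 together held 90.2% of the summed normalised counts of the 67 genes. By class, H1 genes held 75.8%, H2B genes 14.8%, H4 genes 5.27%, H2A genes 3.03% and H3 genes 1.04%. Per kb of exonic length, H1f0 was highest with a mean normalised count of 2099 over the 7 libraries, followed by H1f10 with 1131, H1f2 with 484, H4c9 with 472, H2bc4 with 441, H2bc21 with 212, Hist1h2ao with 198 and H2bc8 with 153. No other member exceeded 57.8 per kb (H4c12). Levels per kb depend on the annotated M21 length, which was 7425 bases in H1f3, with 4885 of them after the stem-loop.

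**Figure D1:**
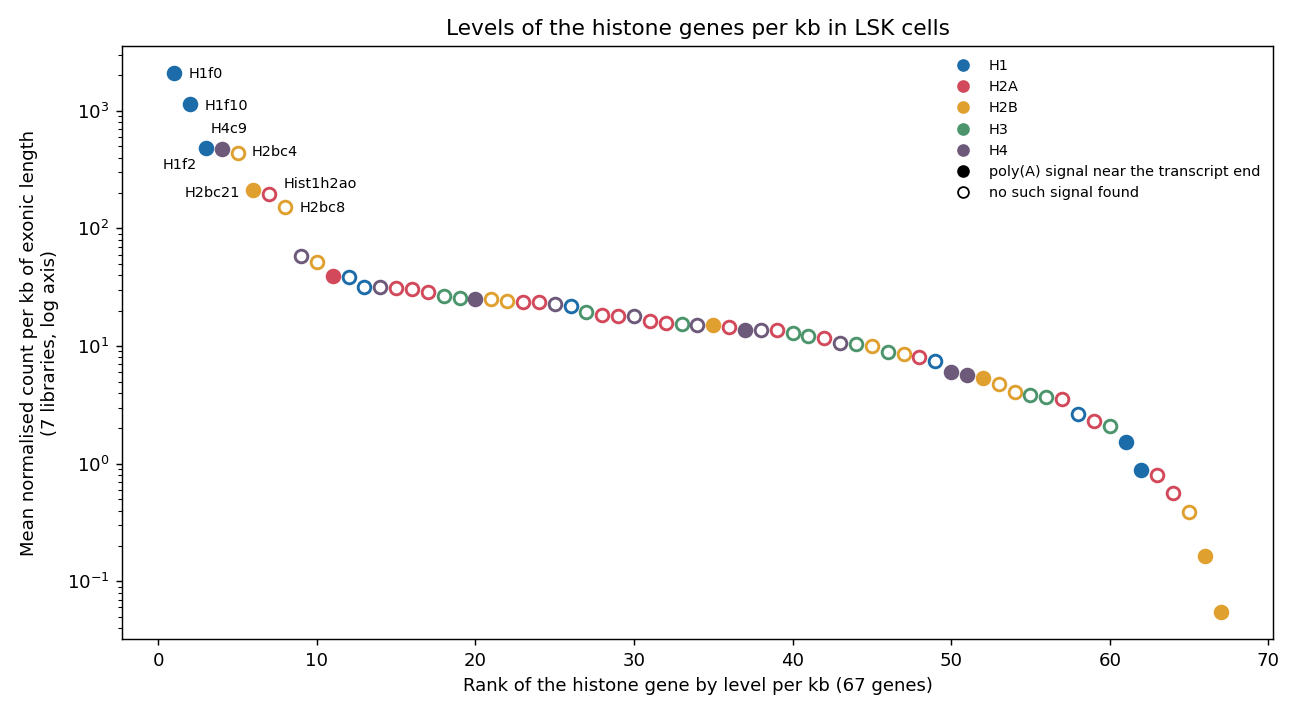
Mean normalised count per kb of exonic length over all 7 libraries (vertical log axis) of the 67 histone genes in order of level, coloured by class and filled where a poly(A) signal was found near the annotated transcript end. The 8 named genes lie between 153 and 2099 per kb, and the others form a continuous slope from 57.8 down to 0.0546 per kb, with filled and open points along it.

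The 16 genes with a poly(A) signal held 85.9% of the histone counts, but most of that was H1f0 and H1f10. The median level of the 16 genes was 14.4 per kb, and that of the 51 genes without a signal was 15.3 per kb. Thus 5 of the 6 members with the most counts had a poly(A) signal by this search. H2bc4 had neither a signal nor the stem-loop pattern in its only annotated transcript. That transcript is spliced from 2 exons, unlike the genes without introns described above. The medians were close, but a signal beyond an annotated end would be missed, and whether the signal goes with level was not tested. Of the 67 genes, 54 lay on chromosome 13, 9 on chromosome 3, 2 on chromosome 6 and 1 each on chromosomes 15 (H1f0) and 19 (the pseudogene H1f11-ps).

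Near-identical copies limit what single members show. For each gene, every stretch of 50 bases of its transcripts was searched for in the transcripts of all other genes. More than 50% of the stretches were shared in 34 of the 67 genes, 11 of them among the 33 genes that were tested below. H1f0, H1f10 and H2bc21 shared none, H1f2 shared 8.54%, H4c9 28.9% and H2bc4 30.1%. Hist1h2ao and Hist1h2ap shared 93.5% and 93.1%, mainly with each other, so that their values are best read as those of the pair. How reads with several matches were counted, and whether strand was used, was not given in the sources used here. This also touches genes whose exons overlap other annotated genes. On the same strand, H1f4 and H2bc6 overlap each other and Gm11398, H1f10 overlaps Gm47286 and H2ac6 overlaps Gm24991. On the opposite strand, H1f0, H1f10 and all 7 tested H2A genes overlap other annotated genes.

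The summed level of the 67 genes was 9565, 9081, 8980 and 8305 normalised counts in the wild-type libraries, and 8331, 9322 and 7342 in the libraries labelled PROSER1 KO. Group means were 8983 ± 519 (SD, n = 4) and 8331 ± 990 (SD, n = 3), and the groups overlapped, with a difference of mean log2 sums of -0.11. That difference was -0.026 without PROSER1 KO replicate 3 and -0.20 without PROSER1 KO replicate 2. In bulk RNA, fewer cells of a type and less RNA per cell cannot be told apart.

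For the test of single genes, limma was fitted to log2(normalised count + 1) over all 16251 genes with a mean normalised count of at least 10, and a gene was called at a Benjamini-Hochberg adjusted p under 0.05 and a fold change above 1.5. Of the 67 members, 33 reached that mean. None of the 33 was called by limma (0 higher and 0 lower), where 0.258% of all tested genes were called, 0.123% higher and 0.135% lower. EdgeR (0.246% of all genes called) and DESeq2 (0.865%) called 0 members as well. At an unadjusted p under 0.05, limma found 3 of 33 members (9.09%), against 9.73% of all tested genes. EdgeR found 3 of 33 members, against 1603 of all 16251 genes. DESeq2, which took all 67 members, found 3, against 1841 of 26202 genes. The log2 fold change was above 0 in 17 members and below 0 in 16, and its median was 0.03, against 0.00 over all tested genes. The members' share was thus near that of all tested genes.

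**Figure D2:**
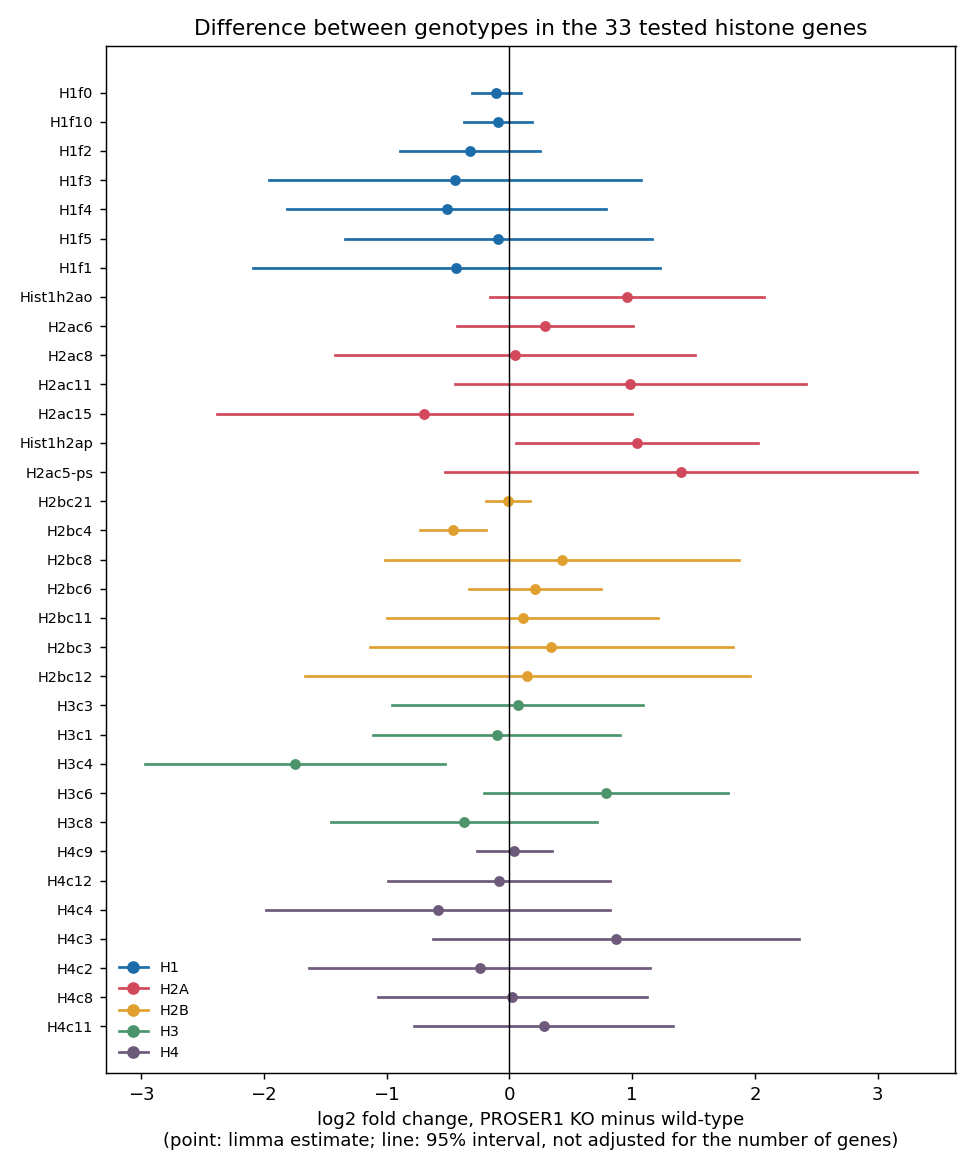
Log2 fold change (horizontal axis, PROSER1 KO minus wild-type, on the log2(normalised count + 1) scale) of the 33 tested histone genes, ordered by class and within a class by mean level, with the limma estimate as a point and its unadjusted 95% interval as a line. Intervals of H2bc4, H3c4 and Hist1h2ap leave out 0, and those of H1f0, H1f10, H2bc21 and H4c9 lie within a 1.5-fold change either way.

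H1f0 encodes H1.0, the linker histone of resting and differentiated cells, and lies on chromosome 15 (79028450 to 79030504). Its normalised count was 4384, 4223, 4642 and 4490 in the wild-type libraries and 4096, 4791 and 3562 in the PROSER1 KO libraries. The groups overlapped, since PROSER1 KO replicate 2 was the highest of all 7 libraries and replicate 3 the lowest. The log2 fold change was -0.11 ± 0.09 (SE), with a 95% interval of -0.30 to 0.09, and was -0.21 without PROSER1 KO replicate 2 and -0.00084 without replicate 3. H1f10, the gene of H1.10, read 1194, 1479, 1571 and 1405 in wild-type, against 1251, 1587 and 1148 in PROSER1 KO, and its difference of -0.09 ± 0.12 (SE) lay within that spread.

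H1f2 encodes H1.2, a linker histone of dividing cells whose gene also yields polyadenylated mRNA. It stood at 1295, 832, 639 and 582 in wild-type and at 649, 773 and 518 in PROSER1 KO, so that wild-type replicate 1 stood apart at the top and the other libraries mixed. The log2 fold change of -0.32 ± 0.25 (SE) had an adjusted p of 0.727 (limma), and the estimate was -0.083 without wild-type replicate 1 and -0.17 without PROSER1 KO replicate 3.

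The other replication-dependent linker histone genes, H1f1, H1f3, H1f4 and H1f5, varied more between libraries of 1 group than between groups. H1f4, which had the largest estimated difference among H1 genes, read 68.3, 81.1, 37.9 and 13.9 in wild-type, against 42.8, 17.8 and 31.7 in PROSER1 KO, with a log2 fold change of -0.51 ± 0.58 (SE). Single libraries set its size: it was -1.01 without wild-type replicate 4 and -0.78 without PROSER1 KO replicate 1, but -0.28, -0.19 and -0.17 without wild-type replicate 1, wild-type replicate 2 or PROSER1 KO replicate 2. These 4 genes, put together after their values had been seen, summed to 233, 271, 132 and 47.5 in wild-type and to 210, 67.7 and 88.3 in PROSER1 KO, a 5.71-fold range over the libraries. Each of the 4 was lowest in wild-type replicate 4. All 7 tested H1 genes had a log2 fold change below 0, with a median of -0.32, but 0 were called and none passed an unadjusted p of 0.05.

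The H2A genes were the one class whose summed level separated the groups. The 19 genes summed to 199, 237, 221 and 221 in wild-type and to 307, 309 and 354 in PROSER1 KO, so that all 3 PROSER1 KO libraries were above all 4 wild-type libraries. Group means were 220 ± 15.6 (SD, n = 4) and 323 ± 26.9 (SD, n = 3), 1.47-fold higher by mean log2 sums, with no test on the sum. Of all single tested genes, 5.17% were likewise higher in PROSER1 KO without overlap, and several class sums were looked at. Without Hist1h2ao and Hist1h2ap, a step taken after the values had been seen, the sums were 167, 179, 131 and 88.1 in wild-type, against 226, 133 and 178 in PROSER1 KO, and the groups overlapped.

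Hist1h2ao read 26.9, 50.5, 81.6 and 123 in wild-type, against 68.8, 156 and 158 in PROSER1 KO. The groups overlapped because wild-type replicates 3 and 4 were above PROSER1 KO replicate 1, and the log2 fold change was 0.96 ± 0.50 (SE), with an adjusted p of 0.572 (limma). The estimate was 0.58 without wild-type replicate 1. Its near copy Hist1h2ap read 4.81, 7.21, 8.05 and 10.4 in wild-type, against 11.5, 20.3 and 18.2 in PROSER1 KO, from 83 read pairs in all. Here all PROSER1 KO libraries were above all wild-type libraries, with a log2 fold change of 1.04 ± 0.44 (SE) and an adjusted p of 0.481 (limma), and Hist1h2ap did not pass the test. Summed, the 2 genes ranged from 31.7 to 133 among the wild-type libraries alone and 5.57-fold over all 7.

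The other H2A genes had few reads. H2ac6 read 39.4, 37.0, 28.7 and 19.7 in wild-type, against 32.3, 44.8 and 35.5 in PROSER1 KO, and H2ac8 read 23.1, 43.3, 13.8 and 20.9 against 46.9, 6.77 and 41.3, and in both genes the groups overlapped. The log2 fold change of H2ac6 was 0.29, and 0.097 without wild-type replicate 4 or 0.16 without PROSER1 KO replicate 2. H2ac5-ps, a pseudogene, had the largest positive estimate of any tested member, 1.40 ± 0.85 (SE) on the log2 scale, from values of 8.65, 10.8, 8.05 and 0 in wild-type, against 16.7, 9.31 and 17.3 in PROSER1 KO. The 0 in wild-type replicate 4 allows a normalised count of up to 3.48, and the estimate rested on that library: it was 0.56 without it. The pseudocount moved it too, to 2.24 with 0.1 and to 0.57 with 10 in place of 1, and it was 1.01 in edgeR and 1.05 in DESeq2. H2ac15 was the only tested H2A gene with an estimate below 0 (-0.69 ± 0.75, SE), with 18.3, 16.2, 16.1 and 4.64 against 20.9, 1.69 and 8.64. Of the 7 tested H2A genes, 6 had an estimate above 0 and 1 passed an unadjusted p of 0.05.

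**Figure D3:**
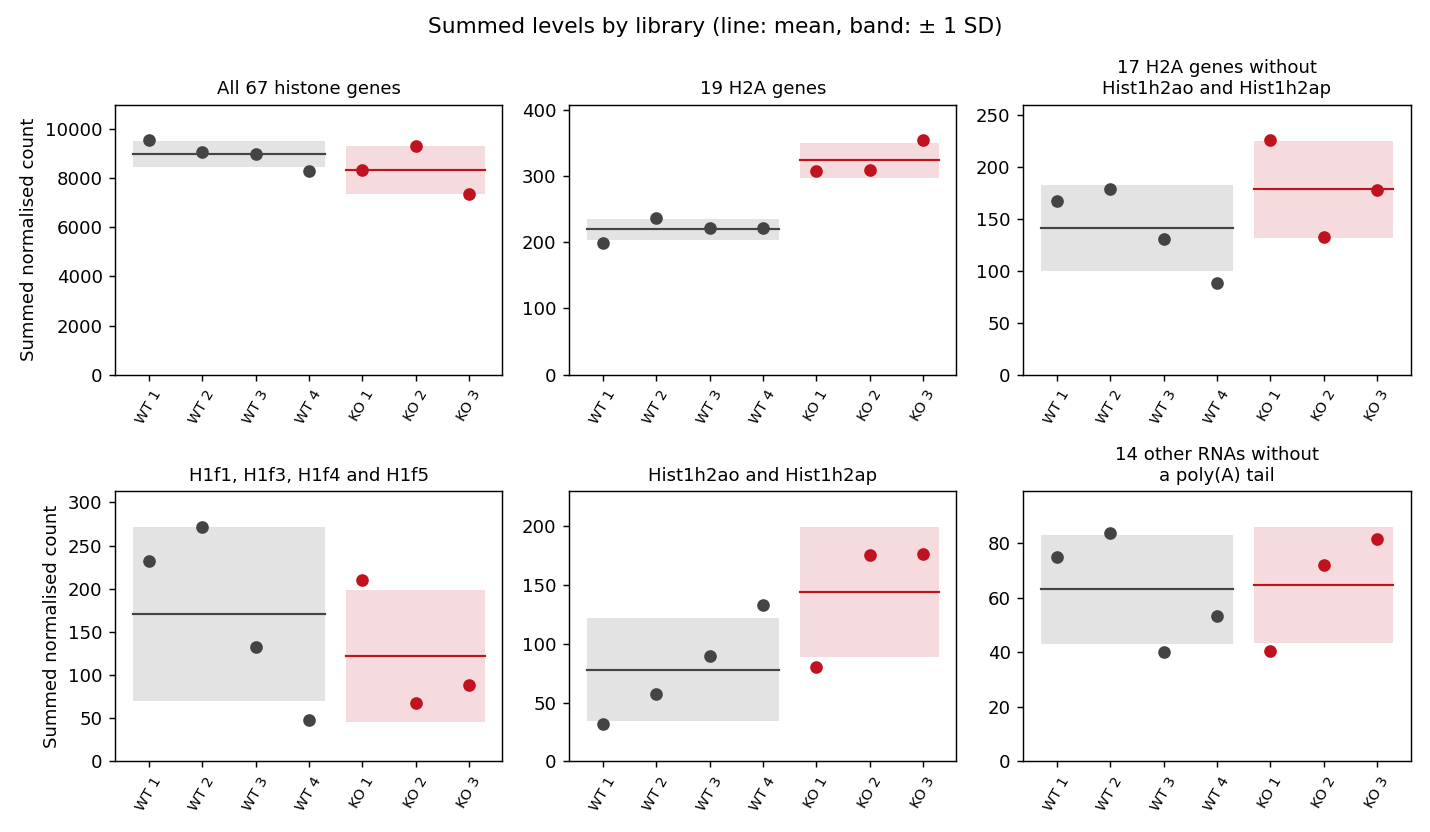
Summed normalised counts (vertical axes, from 0) in each of the 4 wild-type (WT, grey) and 3 PROSER1 KO (KO, red) libraries, with the group mean as a line and ± 1 SD as a band, for 6 groups of genes. The sum of 19 H2A genes is 199 to 237 in wild-type and 307 to 354 in PROSER1 KO, while the other 5 sums overlap between groups.

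H2bc4, an H2B gene on chromosome 13 (23684199 to 23692908), came nearest to a call. Its normalised count was 684, 583, 539 and 507 in wild-type (578 ± 77.1, SD, n = 4) and 384, 459 and 412 in PROSER1 KO (418 ± 38.2, SD, n = 3). All 3 PROSER1 KO libraries were below all 4 wild-type libraries. The log2 fold change was -0.46 ± 0.12 (SE), with a 95% interval of -0.73 to -0.19 and a 1.38-fold lower level. The adjusted p was 0.213 in limma, 0.220 in edgeR and 0.0263 in DESeq2, so that only DESeq2 put it under the threshold, and its fold change stayed under 1.5 there too. Groups did not overlap in 4 of the 33 tested members: H3c6 and Hist1h2ap were higher in PROSER1 KO, as were 5.17% of all tested genes, and H2bc4 and H3c4 were lower, as were 4.83%.

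H2bc21, the other H2B gene with many reads, had the narrowest interval of the 33 tested members. It read 586, 535, 579 and 531 in wild-type, against 558, 526 and 574 in PROSER1 KO, with a log2 fold change of -0.01 ± 0.08 (SE) and a 95% interval of -0.19 to 0.17. H2bc8 in contrast read 188, 105, 54.0 and 20.9 in wild-type, against 121, 118 and 56.6 in PROSER1 KO, and its wild-type libraries spanned more than the whole PROSER1 KO range. The remaining tested H2B genes (H2bc6, H2bc11, H2bc3 and H2bc12) had estimates between 0.11 and 0.34, all with intervals that held 0. The H2B sum was 1353 ± 189 (SD, n = 4) in wild-type and 1209 ± 27.1 (SD, n = 3) in PROSER1 KO, with overlap.

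H2A and H2B genes often stand head to head, and H2bc4 shares its upstream sequence with H2ac6. Among the members, 12 pairs had start sites on opposite strands with 175 to 301 bases between them, each pairing an H2A with an H2B gene. The 250 bases between H2ac6 and H2bc4 (RefSeq promoter table, GRCm38.p6, chr13:23683949-23684198) are shown because they lie upstream of both genes. They are read on the plus strand, toward H2bc4, with capitals for the octamer ATTTGCAT, for CCAAT and for TATAAA, each on either strand.

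H2ac6 to H2bc4: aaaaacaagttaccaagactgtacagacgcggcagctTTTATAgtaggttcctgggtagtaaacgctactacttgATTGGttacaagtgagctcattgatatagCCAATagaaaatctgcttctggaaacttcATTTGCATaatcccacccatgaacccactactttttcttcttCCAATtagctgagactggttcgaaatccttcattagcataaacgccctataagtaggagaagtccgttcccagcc

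The octamer begins 117 bases before the start of H2bc4, and a TATAAA match lies on the strand of H2ac6 only. In the RefSeq table, promoters of 44 members could be matched by symbol and position, each 250 bases before to 50 after a start site. The octamer, on either strand, was in 9 of the 44, which were 4 H2A and 5 H2B genes, against 1.74% of all 32851 promoters. CCAAT, on either strand, was in 38 of the 44 (86.4%, against 37.4% of all promoters), and TATAAA, on the gene's strand, in 23 (52.3%, against 8.32%). Promoters of head-to-head genes overlap, so a single octamer or CCAAT can count for both genes of a pair. A member counted if any of its promoters held the match, whereas the share of all promoters counts each promoter. Levels within a pair were far apart in some pairs and close in others. H2bc4 stood at 441 per kb and H2ac6 at 13.7 per kb, with log2 fold changes of -0.46 and 0.29. Their annotated exonic lengths are 1156 and 2482 bases, and their mean normalised counts were 510 and 33.9. H2bc21 stood at 212 per kb against 18.4 per kb for its partner H2ac20. In contrast, H2bc7 and H2ac7 stood at 8.49 and 8.11 per kb, and H2bc3 and H2ac5-ps at 24.3 and 30.3 per kb.

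The H3 genes held the smallest share of counts, with sums of 138, 114, 82.8 and 58.0 in wild-type, against 87.6, 82.9 and 73.0 in PROSER1 KO. H3c4 had the largest estimated fall of any tested member. It read 26.9, 28.8, 11.5 and 9.27 in wild-type, against 4.17, 6.77 and 2.88 in PROSER1 KO, so that the groups did not overlap. The log2 fold change was -1.75 ± 0.54 (SE), or 3.36-fold lower, from 93 read pairs in all, and the adjusted p was 0.327 in limma, 0.277 in edgeR and 0.186 in DESeq2. H3c6 differed in the other direction, with 11.5, 15.3, 6.90 and 5.80 in wild-type, against 18.8, 16.1 and 15.4 in PROSER1 KO, which do not overlap by a small margin. Its log2 fold change was 0.79 ± 0.44 (SE), with an adjusted p of 0.604 (limma), and 73.4% of its 50-base stretches were shared with other genes. H3c3 and H3c1 differed by 0.07 ± 0.45 and -0.10 ± 0.45 (SE).

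**Figure D4:**
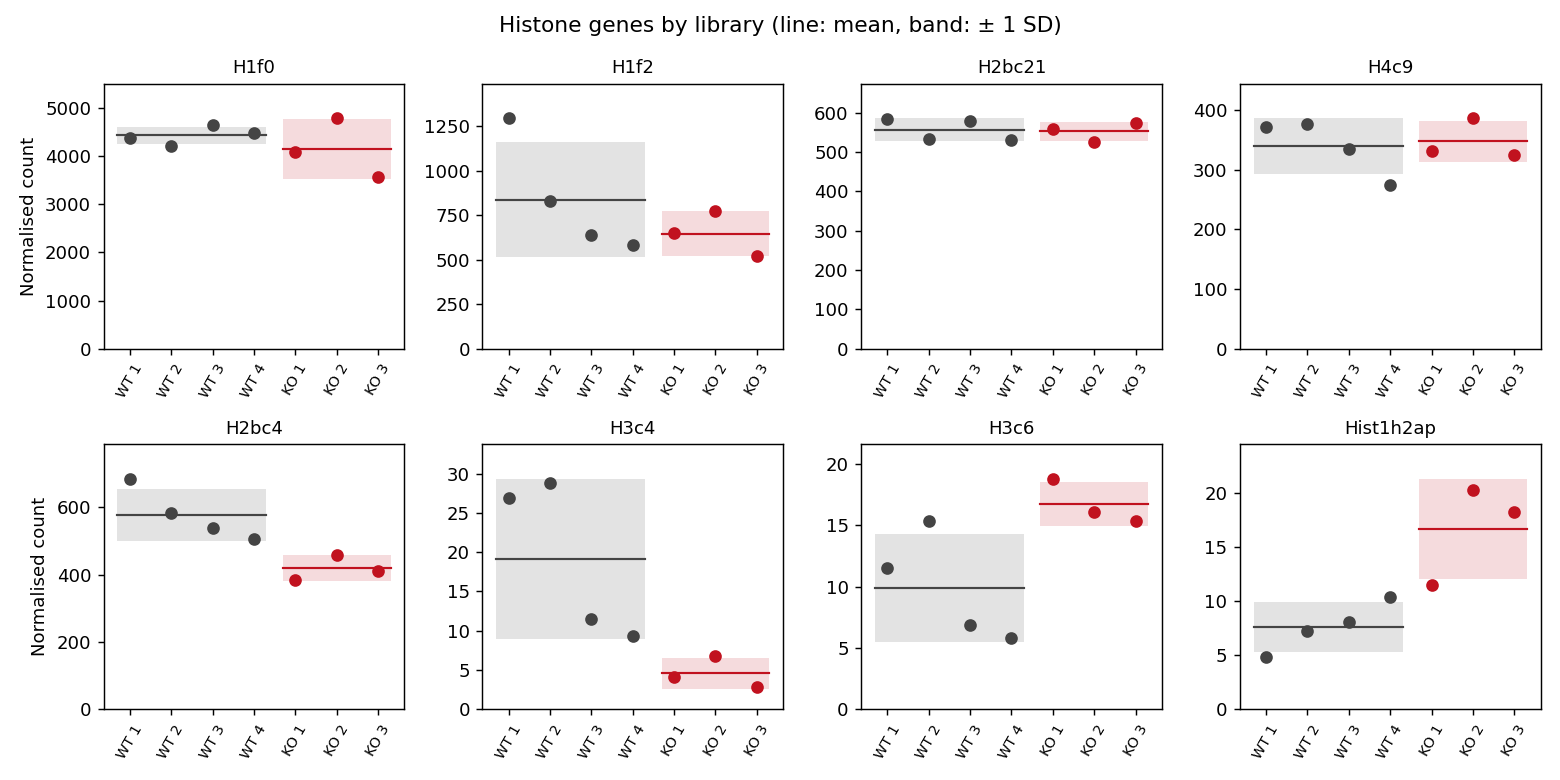
Normalised count (vertical axes, from 0) of 8 histone genes in each wild-type (WT, grey) and PROSER1 KO (KO, red) library, with the group mean as a line and ± 1 SD as a band. The upper row holds H1f0, H1f2, H2bc21 and H4c9, whose groups overlap, and the lower row the 4 tested members whose groups do not: H2bc4 (507 to 684 against 384 to 459), H3c4, H3c6 and Hist1h2ap.

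H4c9 was the only H4 gene among the 6 members with the most counts. It read 371, 378, 334 and 275 in wild-type, against 332, 387 and 325 in PROSER1 KO, and the log2 fold change of 0.04 ± 0.14 (SE) had a 95% interval of -0.26 to 0.35. H4c12, H4c4 and H4c3 each had a mean under 20 normalised counts in either group, with log2 fold changes of -0.09 ± 0.40, -0.58 ± 0.62 and 0.87 ± 0.66 (SE). The estimate of H4c4 ranged from -1.01 (without wild-type replicate 4) to -0.22 (without wild-type replicate 2), and that of H4c3 fell to 0.33 without wild-type replicate 3 and to 0.47 without PROSER1 KO replicate 1. None of the 7 tested H4 genes passed an unadjusted p of 0.05 (limma). The H4 sum was 453 ± 89.0 (SD, n = 4) in wild-type and 467 ± 50.8 (SD, n = 3) in PROSER1 KO.

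The remaining 34 members had a mean under 10 normalised counts and together held 1.56% of histone counts. Only 8 of them were above 0 in all 7 libraries, and 5 were above 0 in 1 library. H2ac13, an H2A gene, read 6.73, 9.92, 3.45 and 5.80 in wild-type, against 12.5, 11 and 16.3 in PROSER1 KO, and Hist1h2an, another H2A gene, read 6.73, 9.01, 4.60 and 9.27 against 3.13, 3.38 and 3.84. These were the 2 untested members whose groups did not overlap, 1 higher and 1 lower in PROSER1 KO, and they are named for that after their values were seen. Among all 9951 genes with a count above 0 that were not tested, 2.21% were higher and 1.63% lower without overlap. In the others the groups overlapped, and no difference was detectable at this depth.

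The libraries differed from each other across the members in a way that cut across genotype. Wild-type replicate 4 held the lowest value of 14 of the 33 tested members, among them 4 of 7 H1 and 4 of 7 H2B genes, while no tested member was lowest in wild-type replicate 2. The median deviation of the 33 members from their own mean on the log2 scale was -0.38 in wild-type replicate 4 and between -0.18 and 0.31 in the other libraries. The same library had the highest immunoglobulin share (13%). Other RNAs that lack a poly(A) tail (14 genes, such as Rn7sk and Rmrp) summed to 75.0, 83.8, 40.2 and 53.3 in wild-type and to 40.7, 71.9 and 81.6 in PROSER1 KO, and that sum was lowest in wild-type replicate 3. The part of either in the histone values was not tested.

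Histone variants made outside S phase, which the symbols above do not take, were not called either. Of 12 such genes, all tested, 0 were called by limma, with a median log2 fold change of -0.02. An unadjusted p under 0.05 was found in 2 of the 12 (16.7%, against 9.73% of all tested genes). H2az1, the gene of H2A.Z, read 11618, 12298, 12904 and 10465 in wild-type, against 11024, 13402 and 11139 in PROSER1 KO. Macroh2a2, which encodes a macroH2A found on silent chromatin, was at 264 to 345 in wild-type and at 193 to 256 in PROSER1 KO, without overlap, with a log2 fold change of -0.44 ± 0.14 (SE) and an adjusted p of 0.347 (limma). Cenpa, the centromeric H3, had a log2 fold change of 0.26 ± 0.09 (SE), with overlap and an adjusted p of 0.380 (limma).

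Genes that serve the histone genes were likewise not called. Of 25 genes for histone transcription and mRNA processing, 0 were called by limma. An unadjusted p under 0.05 was found in 4 (16.0%, against 9.73% of all tested genes). Slbp, which binds the stem-loop, read 3802, 4240, 3883 and 3827 in wild-type, against 3993, 4212 and 3980 in PROSER1 KO (log2 fold change 0.05 ± 0.05, SE). Npat, the S phase activator of histone transcription, had a log2 fold change of 0.16 ± 0.07 (SE), with an adjusted p of 0.480 (limma). Ccne2, a cyclin that acts upstream of NPAT, was at 770 to 886 in wild-type and 896 to 1128 in PROSER1 KO (0.30 ± 0.10, SE, adjusted p = 0.334, limma), and Eri1, an exonuclease that trims histone mRNA ends, had a log2 fold change of 0.16 ± 0.06 (SE), with an adjusted p of 0.396 (limma).

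Among 26 histone chaperones, which carry histones to DNA, 0 were called by limma. An unadjusted p under 0.05 was found in 3 (11.5%, against 9.73% of all tested genes). An estimate above 0 was found in 20 of the 26, against 8219 of all 16251 tested genes. Hjurp, the chaperone of CENP-A, read 13836 to 15519 in wild-type and 16117 to 17325 in PROSER1 KO, with a log2 fold change of 0.19 ± 0.05 (SE) and an adjusted p of 0.282 (limma). Ipo4, an importin that brings H3 and H4 to the nucleus, had a log2 fold change of -0.15 ± 0.06 (SE), with an adjusted p of 0.419 (limma).

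Cell cycle genes give the setting in which histone mRNA is made. Of 43 S phase genes, 0 were called by limma and 5 had an unadjusted p under 0.05 (11.6%, against 9.73% of all tested genes). An estimate above 0 was found in 35, with a median log2 fold change of 0.07. Over all 16251 tested genes, 8219 had an estimate above 0. The S phase list also holds Ccne2 and Slbp, and the G2/M list below holds Hjurp and Cenpa, among others. Neither list is thus separate from the genes above. E2f8, a transcription factor of that list, had a log2 fold change of 0.24 ± 0.09 (SE), with an adjusted p of 0.436 (limma). Of 54 G2/M genes, 0 were called, 17 had an unadjusted p under 0.05 (31.5%, against 9.73% of all tested genes), and 51 had an estimate above 0, with a median of 0.16. The count of 17 moved with single libraries: it was 7, 9, 29 and 8 without wild-type replicates 1 to 4 and 37, 4 and 10 without PROSER1 KO replicates 1 to 3, and it was 6 in limma without the variance trend, 14 in edgeR and 24 in DESeq2. The S phase count likewise was 1 without wild-type replicate 1, 12 without PROSER1 KO replicate 1 and 2 without PROSER1 KO replicate 3. Dlgap5 and Psrc1, which act on the mitotic spindle, had log2 fold changes of 0.38 ± 0.10 and 0.27 ± 0.08 (SE), with adjusted p of 0.222 and 0.248 (limma). The histone genes' own median of 0.03 and their split of 17 to 16 stood beside these values from the same libraries, and the difference between the lists was not tested.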

How the data were processed

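Gene expression was measured by paired-end RNA-seq of LSK cells (4 wild-type, 3 PROSER1 KO libraries, grouped by label). Per the submitters' notes and methods, the authors used Trimmomatic, STAR (mm10), featureCounts and DESeq2 (versions not given). The annotation release is given differently in the sources, and the strand setting is not given. The deposited values are a normalised signal: read pairs per gene divided by 1 size factor per library. Whole read pairs were recovered for 100% of values within 0.01. Genes without a symbol (685, at most 0.135% of read pairs) stayed in the tests.

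Here limma 3.58.1 (R 4.3.3, eBayes with trend, two-sided) was run on log2(normalised count + 1) for genes with a mean of at least 10. Alternatives were edgeR 4.0.16 and DESeq2 1.42.0 on recovered read pairs, other pseudocounts (0.1, 10), filters (none, 50), variance options and normalizations, a replicate block and each library left out. The procedures were run on simulated data with planted changes larger than any estimated for a member, which does not measure power here. Cell cycle lists came from Seurat 5.3.0 and the other lists from general knowledge. Standard errors are limma's. Named genes were the 3 most abundant members of each class, each class's largest rise and fall, the 5 members with the lowest p, and from each other list the 2 with the lowest p plus Slbp, Npat and H2az1. Members and lists were chosen with earlier results of these data known. Positions and transcript ends come from GENCODE M21 (GRCm38) and promoters from RefSeq. Libraries of a group are labelled biological replicates, and each pair differed beyond counting error (lowest chi-square, 27.8 per degree of freedom).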

Additional observations from a re-analysis of the deposited data

Results flagged for a closer look

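H2ac15 stood out by 1 of its wild-type libraries: replicate 4 read 4.64, while the other wild-type libraries read 16.1, 16.2 and 18.3. The gap to the nearest library was 0.840 of the group's whole range, above Dixon's 95% critical value for 4 libraries. Of 41 results examined in this way, 1 passed, and chance flags about 1 in 20. H2ac15 rests on 86 read pairs over all libraries, and 52.3% of its 50-base stretches are shared with other genes.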

How the results depend on the processing

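The count of called histone genes was 0 under every alternative run, as it was for the lists of variants, of transcription and processing factors, of chaperones and of S phase and G2/M genes. The count over all genes moved from 42 to 17 without the variance trend, to 80 with robust variance estimates and to 165 with DESeq2, and ranged from 23 (without PROSER1 KO replicate 2) to 42 when each library was left out. The median log2 fold change of the members changed sign, from -0.10 to 0.15. With edgeR and DESeq2, H3c3 became -0.064 and -0.062, and H4c12 0.0043 and 0.0051. When each library was left out, log2 fold changes ranged from -0.23 to 0.0035 for H1f10, -0.42 to 0.89 for H2ac8, -1.39 to 0.12 for H2ac15, -0.039 to 0.023 for H2bc21, -0.13 to 0.91 for H2bc8, -0.22 to 0.35 for H3c3, -0.37 to 0.22 for H3c1, -0.057 to 0.095 for H4c9, -0.39 to 0.29 for H4c12 and -0.089 to 0.052 for H2az1. The H2A difference of log2 sums fell from 0.56 to 0.36 without Hist1h2ao and Hist1h2ap, a step added after seeing the data, and was 0.49 to 0.60 when each library was left out. The cause of these moves was not tested.

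Libraries with the same replicate number did not deviate together (correlations of 0.02, 0.06 and -0.11), so the numbers were not used as pairs. With the replicate number as a block, to which wild-type replicate 4 contributes nothing, 35 genes and 0 histone genes were called, and H2ac8 became -0.00056, H2bc8 -0.13, H4c9 -0.057 and H2az1 -0.055. With 83 to 93 read pairs in all, H3c4, H3c6 and Hist1h2ap are limited by depth.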
